A study of Mus musculus with 18 samples.

Results

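The genes described here are the lysyl oxidases Lox, Loxl1, Loxl2, Loxl3 and Loxl4, the prolyl 4-hydroxylase alpha subunits P4ha1, P4ha2 and P4ha3, the lysyl hydroxylase Plod2 and the collagen chaperone Serpinh1. They were taken by symbol after the gene identifiers of the count files were matched to the mouse annotation, and all 10 were found among 55335 genes. The RNA came from O9-1 cells, a mouse neural crest (NC) line of wildtype genotype kept in osteoblast differentiation medium. At each of 2 times, d2.5 and d5, the groups were Ctrl+vehicle (control siRNA with vehicle), Ctrl+FGF2 (control siRNA with FGF2) and Y/T dKD+FGF2 (pools of siRNAs to both Yap and Taz, with FGF2), with 3 libraries in each of the 6 groups. No knockdown without FGF2 was sequenced, so the knockdown is described in the presence of FGF2. All groups share 1 cell line, and the labels do not say that replicates were separate cultures, so p-values measure the spread between these samples, which may be technical. The labels also give the day as the batch, and the day and the batch cannot be told apart.

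Fibrillar collagens are modified inside and outside the cell before they become load-bearing fibres. Inside the endoplasmic reticulum, prolyl 4-hydroxylases (an alpha subunit, which carries the catalytic site, with the shared beta subunit P4hb) stabilise the triple helix, lysyl hydroxylases such as Plod2 prepare lysines of the telopeptides for a stable kind of crosslink, and Serpinh1 (also called HSP47) binds the folded helix on its way to the Golgi. Outside the cell, the lysyl oxidases, copper-dependent amine oxidases, convert lysines of collagen and elastin into the aldehydes that form the crosslinks. P4ha1, P4ha2, Plod2 and Lox are also known as genes that respond to low oxygen, and Loxl3 is known for its part in the development of the palate and spine.

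The libraries held between 10377151 and 14698525 counts on genes. The targeted genes fell in the knockdown: Yap1 was at 51.5% of its Ctrl+FGF2 level at d2.5 and 46.0% at d5, and Wwtr1, which encodes Taz, at 60.8% and 57.5% (edgeR quasi-likelihood test, highest adjusted p = 2.55e-15 at d2.5 and 4.92e-11 at d5). Wwtr1 rose by 0.65 on the log2 scale with FGF2 at d2.5 (adjusted p = 1.3e-16), so that its knocked-down level at d2.5 lay near that of vehicle (log2 difference -0.065, 95% interval -0.14 to 0.011). Of 9 markers of the neural crest and cranial mesenchyme, Prrx1 and Twist1 were present in every group (means of 1302 to 2218 and 53.0 to 93.3 CPM, the count of a gene scaled to the library total in the usual way), while Sox10 and Foxd3, which define the early neural crest, were at 0 in every group. By group, 3 or 4 of the 9 averaged under 1 CPM, Sox10 and Foxd3 included. Of 6 tested, FGF2 lowered 3 and raised none at d2.5, and raised 3 and lowered 2 at d5. Msx2 fell with FGF2 to 15.8% of vehicle at d2.5 and 48.4% at d5, and Sox9 reached 188% at d5. The knockdown raised 2 and lowered 1 at d2.5, and raised 2 and lowered 3 at d5. Of 6 osteoblast markers, 5 were tested at d2.5, where FGF2 lowered 4 and raised 1 (median log2 fold change -2.34) and the knockdown raised 3 and lowered none. At d5 FGF2 raised 3 and lowered 3, and the knockdown raised all 6. For both marker lists, the shares of all genes tested that FGF2 lowered and raised were 34.1% and 33.5% at d2.5. They were 23.7% and 23.5% at d5. The shares that the knockdown lowered and raised were 13.6% and 10.8% at d2.5, and 16.1% and 15.6% at d5. Alpl fell from 115 CPM with vehicle to 0.14 CPM with FGF2 at d2.5, while the sum of the 6, mostly Spp1, ran from 4622 to 4707 CPM with vehicle, 7012 to 7119 CPM with FGF2 and 8668 to 9190 CPM in the knockdown at d2.5, and from 1701 to 1837, 1883 to 2319 and 3047 to 3419 CPM at d5. Chondrocyte markers summed to between 22.02 and 227 CPM and adipocyte markers to at most 35.2 CPM, and those of endothelium, leukocytes and glia to at most 8.31 CPM in any library. The part of these markers in the results below was not tested.

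Levels are given in CPM, scaled by the TMM method over all 18 libraries, and compared between genes only as CPM per kilobase of merged exons. All 10 genes passed the filter on low counts in every comparison, and the smallest count of any of them in a library was 216, for P4ha3. Fold changes come from edgeR fits within each day and can differ slightly from ratios of these levels. A gene is called higher or lower where its adjusted p (Benjamini-Hochberg, over all genes tested) is under 0.05. In bulk RNA, fewer cells of a type and less RNA per cell cannot be told apart.

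On the per-length scale Serpinh1 and Lox led in most groups. At d2.5 with vehicle Serpinh1 stood at 550 ± 4.73 CPM per kb (SD, n = 3 here and throughout) and Lox at 253 ± 2.27, with P4ha1 next at 48.6 ± 1.97 and Loxl2 last at 7.36 ± 1.15. With FGF2 at d2.5, Loxl3 (99.0 ± 2.05) reached the level of Lox (97.8 ± 4.297), a pair that did not differ beyond its spread per merged exons. Per longest transcript Loxl3 was ahead, with 43.2% of the lysyl oxidase sum beside 38.3% for Lox. At d5 with vehicle Lox was first at 758 ± 1.38 CPM per kb, ahead of Serpinh1 at 561 ± 30.4, and Loxl2 had moved from last to rank 3, at 63.3 ± 3.95. In d5 Y/T dKD+FGF2 cells Serpinh1 (482 ± 6.16) was again ahead of Lox (370 ± 11.5).

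**Figure D1:**
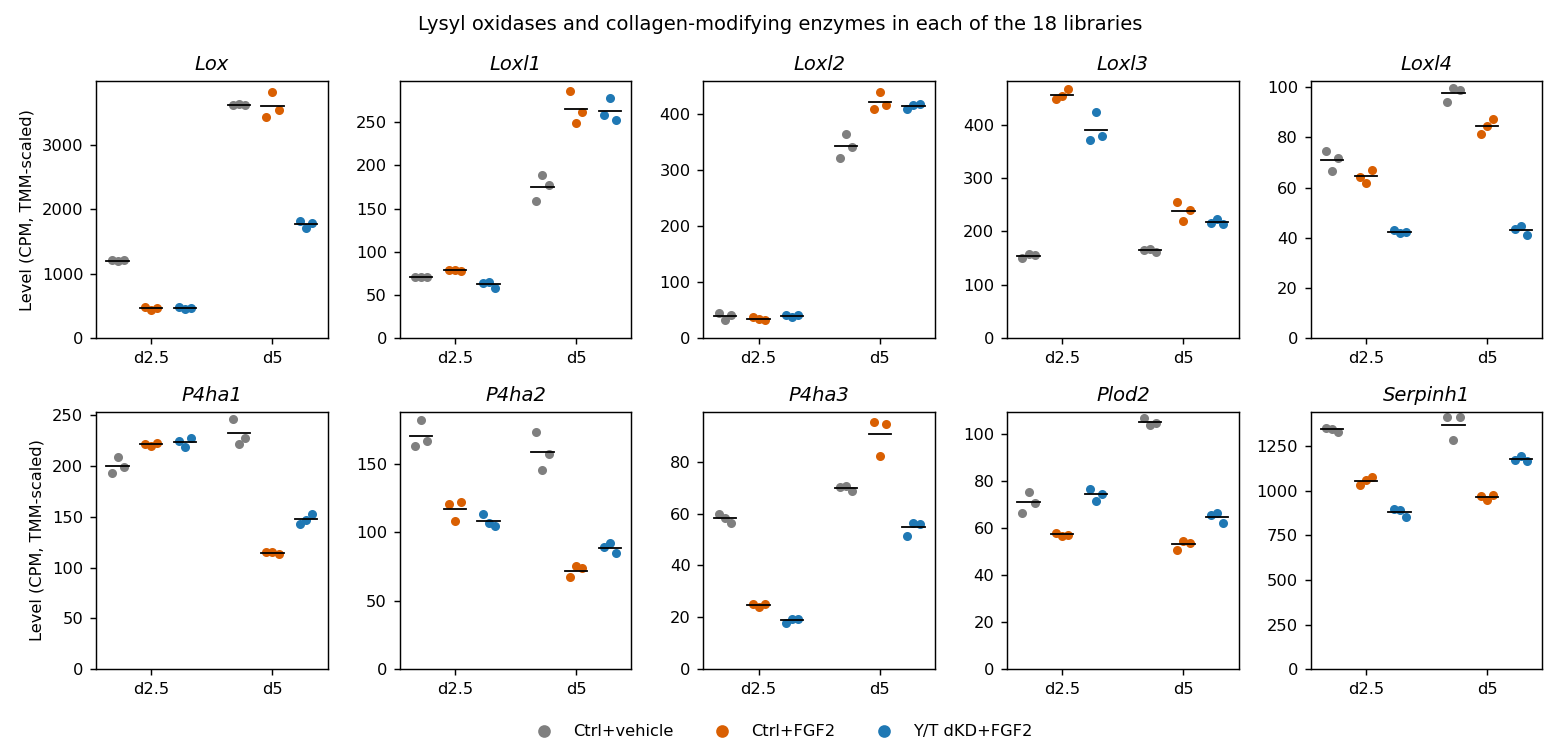
Level of each gene in CPM (vertical axes, linear from 0, a scale of its own in each panel) in the 18 libraries, at d2.5 and d5. Each dot is 1 library, black lines are group means, and colours mark the 3 treatments. Lox at d5 lies between 1709 and 1815 CPM in the knockdown and between 3433 and 3819 CPM in Ctrl+FGF2.

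All 10 genes passed the test for FGF2 at d2.5, though Loxl2 did so narrowly and was called under 7 of 18 alternatives. Lox, Loxl2, Loxl4, P4ha2, P4ha3, Plod2 and Serpinh1 fell (7 of 10), and Loxl1, Loxl3 and P4ha1 rose (3 of 10), in a comparison where 34.1% of the 13677 genes tested were called lower and 33.5% higher. The median log2 fold change was -0.25 over the 10 genes and 0.0022 over all genes tested. At d5, Loxl1, Loxl2, Loxl3 and P4ha3 rose with FGF2 (4 of 10), Loxl4, P4ha1, P4ha2, Plod2 and Serpinh1 fell (5 of 10) and Lox did not pass the test, beside 23.5% called higher and 23.7% called lower of 13304 genes. The median was -0.097 over the 10 genes and 0.016 over all.

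The knockdown lowered Loxl1, Loxl3, Loxl4, P4ha3 and Serpinh1 at d2.5 (5 of 10, against 13.6% of all genes tested) and raised Plod2 (1 of 10, against 10.8%). Without d2.5 Ctrl+vehicle replicate 1 or 2, Loxl2 was also called higher (2 of 10), and without d2.5 Y/T dKD+FGF2 replicate 3 the count of all genes called higher fell from 1483 to 916. At d5 it lowered Lox, Loxl3, Loxl4 and P4ha3 (4 of 10, against 16.1%) and raised P4ha1, P4ha2, Plod2 and Serpinh1 (4 of 10, against 15.6%). The medians over the 10 genes were -0.18 at d2.5 and -0.023 at d5, beside 0.0013 and 0.0034 over all genes. The FGF2 comparison and the knockdown comparison share the Ctrl+FGF2 libraries, so an error in these moves both in opposite directions.

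Set against vehicle, the Y/T dKD+FGF2 cells had Loxl3 and P4ha1 higher at d2.5 (2 of 10, against 34.1% of genes) and Lox, Loxl1, Loxl4, P4ha2, P4ha3 and Serpinh1 lower (6 of 10, against 35.7%). Loxl2 and Plod2 did not pass this test, with log2 differences of 0.0062 (95% interval -0.15 to 0.16) and 0.045 (-0.054 to 0.14). At d5 Loxl1, Loxl2 and Loxl3 were higher than in vehicle (3 of 10, against 20.7%) and the other 7 were lower (against 21.1%). This comparison changes FGF2 and both siRNA targets together.

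**Figure D2:**
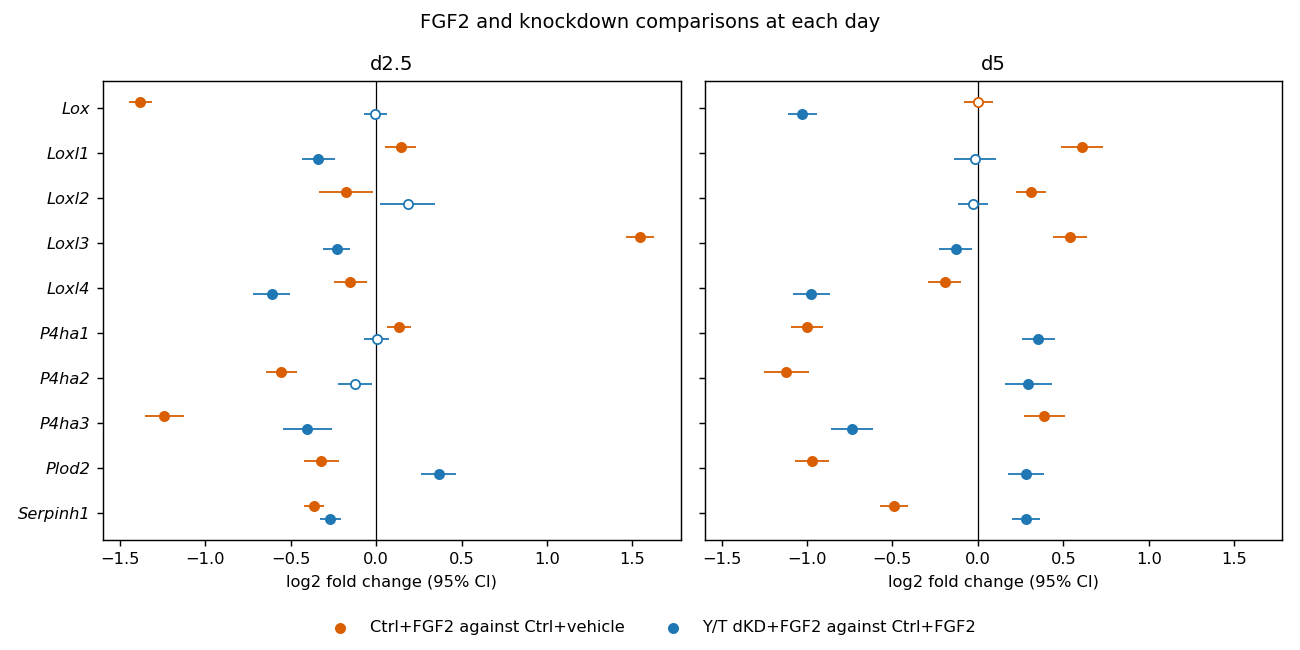
Log2 fold changes (horizontal axes, with 95% confidence intervals) of the 10 genes for Ctrl+FGF2 against Ctrl+vehicle and for Y/T dKD+FGF2 against Ctrl+FGF2, at d2.5 and d5. Filled points passed an adjusted p of 0.05 and open points did not. Lox with FGF2 lies at -1.38 at d2.5 and at 0.0014 at d5, whereas its knockdown value lies at -0.0061 and -1.03.

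Lox (ENSMUSG00000024529.14, chr18:52516067-52529867 on the minus strand, GRCm38), the founding lysyl oxidase, differed between the days. At d2.5 it was at 1216, 1195 and 1208 CPM with vehicle, 484, 444 and 473 CPM with FGF2, and 478, 449.6 and 476 CPM in Y/T dKD+FGF2 cells. The vehicle libraries were all higher, and the FGF2 libraries overlapped with the knockdown. Lox thus fell with FGF2 to 38.4% of its vehicle level (log2 fold change -1.38, SE 0.032, adjusted p = 6.37e-26), and its knockdown difference was -0.0061 (95% interval -0.073 to 0.061). At d5 the levels were 3619.8, 3630.1 and 3618 CPM with vehicle, 3433, 3819 and 3532 CPM with FGF2, and 1815, 1709 and 1785 CPM in the knockdown. Here vehicle and FGF2 overlapped and every knockdown library lay below both. FGF2 gave 0.0014 (95% interval -0.083 to 0.086), while the knockdown lowered Lox to 49.0% of Ctrl+FGF2 (log2 fold change -1.03, SE 0.040, adjusted p = 5.83e-12). Both effects differed between the days, by 1.36 for FGF2 (SE 0.053, adjusted p = 4.03e-19) and by -1.03 for the knockdown (SE 0.053, adjusted p = 2.45e-14). An annotated gene on the other strand shares 30 bases with the exons of Lox.

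Loxl1 and Loxl2 rose with FGF2 at d5. Loxl1 (ENSMUSG00000032334.10, chr9:58287738-58313186, minus strand), which acts in the upkeep of elastic fibres, was at 70.7, 70.9 and 70.6 CPM with vehicle at d2.5, 79.5, 79.1 and 77.7 CPM with FGF2, and 64.4, 65.2 and 58.4 CPM in the knockdown. These groups did not overlap. FGF2 raised Loxl1 by 0.14 on the log2 scale (SE 0.045, adjusted p = 0.0057), and the knockdown lowered it by 0.34, to 79.1% (log2 fold change -0.34, SE 0.047, adjusted p = 2.7e-06). At d5 it was at 159, 189 and 178 CPM with vehicle, 286, 249 and 262 CPM with FGF2, and 258, 279 and 253 CPM in the knockdown. The vehicle libraries were the lowest, and the other groups overlapped. The rise with FGF2 was 0.61 (SE 0.059, adjusted p = 1.79e-07), and the knockdown gave -0.017 (95% interval -0.14 to 0.10). The FGF2 effect was larger at d5 by 0.44 (adjusted p = 1.87e-05), and the knockdown effect differed between days by 0.32 (adjusted p = 0.0043).

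Loxl2 (ENSMUSG00000034205.16, chr14:69609068-69695834, plus strand), which can crosslink the collagen IV of basement membranes, was at 45.2, 33.04 and 41.1 CPM with vehicle at d2.5, 37.8, 34.6 and 33.6 CPM with FGF2, and 42.5, 37.7 and 41.1 CPM in the knockdown. All these groups overlapped. The FGF2 difference of -0.18 (SE 0.077, adjusted p = 0.041) passed the test narrowly and stayed past it under 7 of 18 alternatives. It was lost with DESeq2 (adjusted p = 0.073), unstranded counts (0.055), all 18 libraries in the fit (0.065) and only the 2 groups compared (0.060). It was also lost without Ctrl+vehicle replicate 1 (-0.073, adjusted p = 0.38) or 3, without Ctrl+FGF2 replicate 2 or 3, and without any 1 of the Y/T dKD+FGF2 libraries, with adjusted p from 0.055 upwards, and it was -0.30 without Ctrl+vehicle replicate 2. At d5 Loxl2 was at 321, 364 and 341 CPM with vehicle, 408, 438 and 417 CPM with FGF2, and 409, 415 and 418 CPM in the knockdown. Both FGF2-treated groups lay above vehicle. FGF2 raised it by 0.31 (SE 0.042, adjusted p = 9.41e-06), and the knockdown gave -0.029 (95% interval -0.12 to 0.059). The FGF2 effect differed between days by 0.47 (adjusted p = 0.00011). The exons of Loxl2 overlap those of Gm27177 on the other strand by 301 bases and Mir6950 on the same strand by 7 bases.

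Loxl3 (ENSMUSG00000000693.10, chr6:83034173-83052562, plus strand) had the largest rise of the 10 genes with FGF2 at d2.5. At d2.5 it was at 151, 158 and 155 CPM with vehicle, 447, 454 and 466 CPM with FGF2, and 371, 423 and 378 CPM in the knockdown. The groups did not overlap. It reached 292% of vehicle with FGF2 (log2 fold change 1.55, SE 0.041, adjusted p = 1.44e-24), and the knockdown lowered it by 0.23, to 85.3% (log2 fold change -0.23, SE 0.039, adjusted p = 4.82e-05). At d5 the levels were 166, 168 and 161 CPM with vehicle, 254, 219 and 240.0 CPM with FGF2, and 217, 223 and 215 CPM in the knockdown. The vehicle libraries were again the lowest, but FGF2 and knockdown overlapped. The rise with FGF2 was 0.54 (SE 0.047, adjusted p = 5.54e-08), smaller than at d2.5 by 1.03 (difference -1.03, SE 0.067, adjusted p = 5.18e-14). The knockdown value at d5 was -0.13 (SE 0.046, adjusted p = 0.038). This call stayed under 11 of 18 alternatives and was lost with DESeq2 (adjusted p = 0.071), without Ctrl+FGF2 replicate 1 (-0.081, adjusted p = 0.19) or 3, without Ctrl+vehicle replicate 3 and without any 1 of the knockdown libraries. The exons of Loxl3 overlap those of Htra2 on the other strand by 535 bases, and the counts used are those of 1 strand.

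Loxl4 (ENSMUSG00000025185.14, chr19:42593982-42612813, minus strand) was the lysyl oxidase lowered by the knockdown by over 0.5 on the log2 scale on both days. It was at 74.6, 66.7 and 72.0 CPM with vehicle at d2.5, 64.2, 62.0 and 67.2 CPM with FGF2, and 43.0, 42.0 and 42.4 CPM in the knockdown. At d5 these were 94.1, 99.5 and 98.8 CPM, 81.4, 84.4 and 87.4 CPM, and 43.4, 44.5 and 41.3 CPM. On both days every knockdown library lay below every other library, and vehicle and FGF2 overlapped only at d2.5. The knockdown took Loxl4 to 65.4% of Ctrl+FGF2 at d2.5 (log2 fold change -0.61, SE 0.053, adjusted p = 5.5e-10) and to 50.9% at d5 (log2 fold change -0.97, SE 0.051, adjusted p = 1.62e-10), a larger fall at d5 by 0.37 (difference -0.37, SE 0.075, adjusted p = 0.00059). FGF2 lowered it slightly on both days, by 0.15 and 0.20 (log2 fold changes -0.15 and -0.20, adjusted p = 0.0064 and 0.0019). The FGF2 effect was the one that did not pass the test of a difference between days, at -0.069 (95% interval -0.21 to 0.068).

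The makeup of the lysyl oxidase RNA, as each gene's share of the summed CPM per kb of the 5 genes, followed from these levels. Lox made up 76.1% ± 0.14 with vehicle at d2.5 and 40.3% ± 1.06 with FGF2, where Loxl3 held 40.8% ± 1.03, up from 10.1% ± 0.34. At d5 Lox held 81.2% ± 0.79 with vehicle, 76.5% ± 1.45 with FGF2 and 63.4% ± 1.29 in the knockdown, where Loxl1 and Loxl2 each held over 13% (13.7% ± 0.83 and 13.1% ± 0.27). The shares describe RNA and not enzyme.

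**Figure D3:**
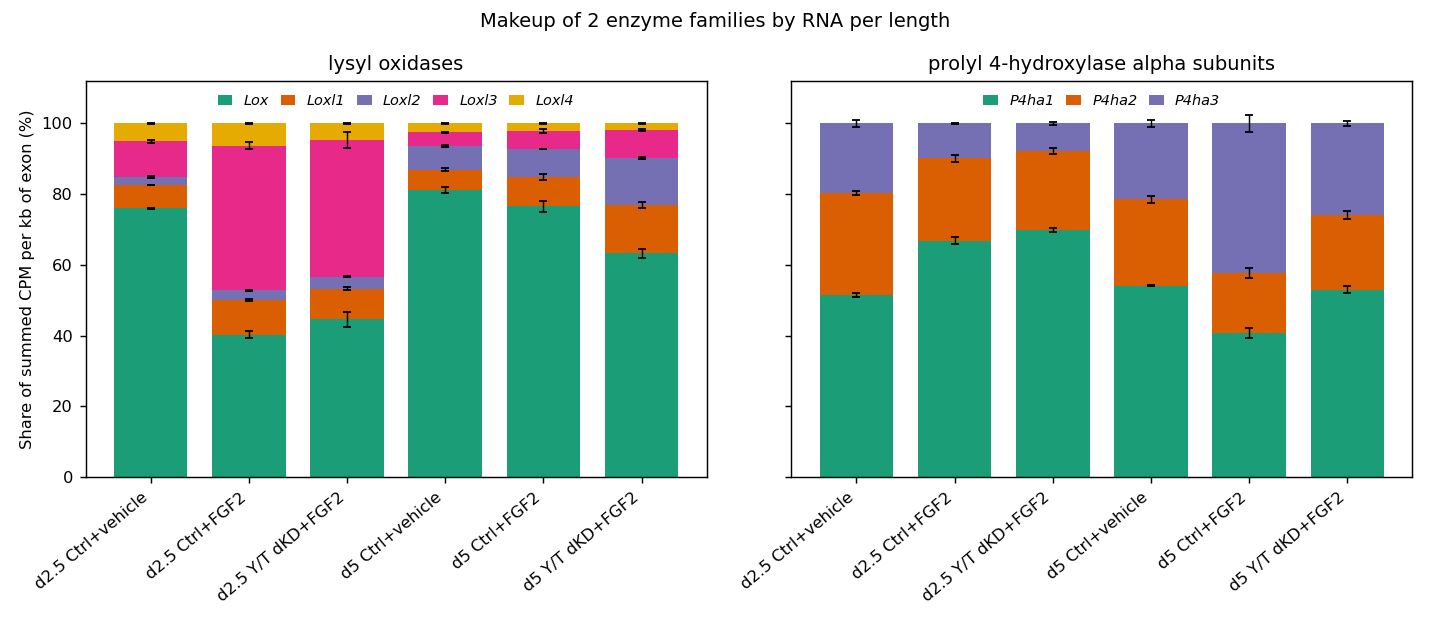
Share (vertical axis, percent) of each gene in the summed CPM per kb of merged exons of the 5 lysyl oxidases (left) and the 3 prolyl 4-hydroxylase alpha subunits (right), in the 6 groups. Bars are means of 3 libraries and error bars are SD, drawn at the top of each segment. Lox and Loxl3 hold 40.3% and 40.8% in d2.5 Ctrl+FGF2, and P4ha3 holds 42.3% of its family in d5 Ctrl+FGF2.

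The 3 prolyl 4-hydroxylase alpha subunits split at d5: P4ha1 and P4ha2 fell with FGF2 and rose with the knockdown, and P4ha3 did the reverse. Their promoters, with that of Serpinh1, are shown because these genes moved together or apart at d5. The sequences are the 250 bases before the RefSeq start on GRCm38.p6, 5′ to 3′ on the gene's strand. They lie at chr10:59323046-59323295 (plus strand) for P4ha1, chr11:54100674-54100923 (plus) for P4ha2, chr7:100285270-100285519 (plus) for P4ha3 and chr7:99353240-99353489 (minus) for Serpinh1. The P4ha2 window lies inside the gene as GENCODE annotates it. RefSeq promoters were at hand for 5 of the 10 genes, Loxl4 being the fifth. Capitals mark the core of the hypoxia response element, ACGTG, on either strand.
P4ha1: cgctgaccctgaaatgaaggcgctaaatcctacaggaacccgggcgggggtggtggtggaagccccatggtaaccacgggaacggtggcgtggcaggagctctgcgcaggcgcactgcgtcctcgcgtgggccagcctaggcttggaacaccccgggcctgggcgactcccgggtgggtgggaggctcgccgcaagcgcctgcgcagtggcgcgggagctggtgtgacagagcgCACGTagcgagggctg
P4ha2: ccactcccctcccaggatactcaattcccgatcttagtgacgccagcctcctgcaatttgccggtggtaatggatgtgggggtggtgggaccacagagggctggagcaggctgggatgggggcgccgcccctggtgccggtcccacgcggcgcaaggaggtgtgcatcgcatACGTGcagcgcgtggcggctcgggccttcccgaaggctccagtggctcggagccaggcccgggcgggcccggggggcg
P4ha3: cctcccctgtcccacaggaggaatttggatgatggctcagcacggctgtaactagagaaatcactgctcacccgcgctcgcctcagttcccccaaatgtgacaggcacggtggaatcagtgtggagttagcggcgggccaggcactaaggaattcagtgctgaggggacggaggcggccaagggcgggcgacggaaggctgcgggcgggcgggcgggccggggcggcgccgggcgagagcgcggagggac
Serpinh1: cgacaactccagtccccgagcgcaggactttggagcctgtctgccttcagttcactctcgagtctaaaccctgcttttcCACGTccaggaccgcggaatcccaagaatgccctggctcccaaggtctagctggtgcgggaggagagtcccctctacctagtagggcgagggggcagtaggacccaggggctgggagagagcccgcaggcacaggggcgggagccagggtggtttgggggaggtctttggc

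ACGTG occurred once each in P4ha1, P4ha2 and Serpinh1, with its first base at -16, -78 and -171 from the start, and in neither P4ha3 nor Loxl4. Of all 32851 promoters in the table, 16.6% held it in the same 250 bases. None of the 5 windows held the TEAD letters GGAATG (12.6% of all promoters), the AP-1 letters TGANTCA (6.75%), the heat shock letters GAANNTTC (6.69%) or CCAAT (33.8%), each searched on both strands. No motif overlapped another in these windows. Such matches are a description of the letters, not of binding.

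P4ha1 (ENSMUSG00000019916.14, chr10:59323296-59373304, plus strand) was at 193, 209 and 199 CPM with vehicle at d2.5, 222, 220.1 and 223 CPM with FGF2, and 224, 219 and 227 CPM in the knockdown. The FGF2 libraries lay just above vehicle and overlapped with the knockdown. At d5 it was at 247, 222 and 228 CPM with vehicle, 115, 115 and 113 CPM with FGF2, and 143, 147 and 153 CPM in the knockdown, and these groups did not overlap. FGF2 raised P4ha1 by 0.13 at d2.5 (SE 0.035, adjusted p = 0.0012) and lowered it to 49.9% of vehicle at d5 (log2 fold change -1.002, SE 0.045, adjusted p = 1.47e-11), a difference between days of -1.16 (SE 0.057, adjusted p = 9.44e-17). The knockdown gave 0.0028 at d2.5 (95% interval -0.069 to 0.075) and a rise of 0.35 at d5 (SE 0.046, adjusted p = 1.15e-05), which differed by 0.35 (adjusted p = 5.35e-05). At d5 the knocked-down level stayed at 63.8% of vehicle.

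P4ha2 (ENSMUSG00000018906.14, chr11:54100095-54131665, plus strand) was at 163, 182 and 167 CPM with vehicle at d2.5, 121, 109 and 122 CPM with FGF2, and 113, 107 and 105 CPM in the knockdown. At d5 it was at 173, 146 and 157 CPM, 67.2, 75.2 and 74.2 CPM, and 89.4, 92.3 and 84.8 CPM. The vehicle libraries were the highest on both days, and FGF2 and knockdown overlapped at d2.5 only. FGF2 lowered P4ha2 to 68.1% at d2.5 (log2 fold change -0.55, SE 0.045, adjusted p = 2.58e-12) and to 46.0% at d5 (log2 fold change -1.12, SE 0.062, adjusted p = 1.91e-10). The knockdown gave -0.12 at d2.5, which did not pass the test (adjusted p = 0.056) but did under 7 of 18 alternatives, 4 of them without 1 library (-0.18, adjusted p = 0.013, without Ctrl+FGF2 replicate 2), and a rise of 0.29 at d5 (SE 0.065, adjusted p = 0.0019). The difference between days was -0.59 for FGF2 (adjusted p = 3.24e-07) and 0.42 for the knockdown (adjusted p = 0.00071).

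P4ha3 (ENSMUSG00000051048.17, chr7:100285520-100319699, plus strand) was at 59.7, 58.3 and 56.4 CPM with vehicle at d2.5, 25.0, 24.2 and 25.3 CPM with FGF2, and 17.9, 19.5 and 19.2 CPM in the knockdown. At d5 it was at 70.2, 70.6 and 68.6 CPM, 95.3, 82.3 and 94.4 CPM, and 51.5, 56.5 and 56.1 CPM. On neither day did the groups overlap, and FGF2 placed the gene below vehicle at d2.5 and above it at d5. FGF2 lowered P4ha3 to 42.3% of vehicle at d2.5 (log2 fold change -1.24, SE 0.056, adjusted p = 1.59e-18) and raised it to 131% at d5 (log2 fold change 0.39, SE 0.057, adjusted p = 2.11e-05). The difference of 1.60 between days (SE 0.080, adjusted p = 1.32e-16) was larger than that of any other of the 10 genes. The knockdown lowered it to 75.6% at d2.5 (log2 fold change -0.40, SE 0.070, adjusted p = 8.02e-05) and to 60.1% at d5 (log2 fold change -0.73, SE 0.058, adjusted p = 3.13e-08), a larger fall at d5 by 0.33 (difference -0.33, adjusted p = 0.0094).

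Among the alpha subunits, P4ha1 held 66.9% ± 1.02 of the summed CPM per kb and P4ha3 9.82% ± 0.028 with FGF2 at d2.5. With FGF2 at d5 the shares were 40.8% ± 1.35 for P4ha1 and 42.3% ± 2.35 for P4ha3, which did not differ beyond their spread, and in the knockdown P4ha1 held 53.1% ± 1.02 and P4ha3 25.8% ± 0.67. The summed level was 104 ± 5.34 CPM per kb with vehicle at d5, 68.4 ± 1.76 with FGF2 and 67.5 ± 1.77 in the knockdown. The order depends on the length used: the longest transcript and the merged exons measure 3060 and 6239 bases for P4ha2, 2403 and 3135 for P4ha3, and 4043 and 4114 for P4ha1. Per longest transcript, P4ha2 led with vehicle at d2.5 (43.1%, beside 38.2% for P4ha1), and P4ha3 led with FGF2 at d5 (42.0%, beside 31.7% for P4ha1).

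Plod2 (ENSMUSG00000032374.14, chr9:92542223-92608428, plus strand) rose with the knockdown on both days. It was at 66.5, 75.4 and 70.8 CPM with vehicle at d2.5, 58.0, 56.7 and 57.1 CPM with FGF2, and 76.8, 71.5 and 74.6 CPM in the knockdown. At d5 it was at 107, 104 and 105 CPM, 50.8, 54.4 and 53.8 CPM, and 65.3, 66.5 and 62.0 CPM. The FGF2 libraries were the lowest on both days, while the knockdown overlapped with vehicle at d2.5 and lay between at d5. The knockdown raised Plod2 to 129% of Ctrl+FGF2 at d2.5 (log2 fold change 0.37, SE 0.050, adjusted p = 2.26e-06) and to 121% at d5 (log2 fold change 0.28, SE 0.050, adjusted p = 0.00028), with a difference between days of -0.088 that did not pass the test (95% interval -0.23 to 0.058). FGF2 lowered it to 80.1% at d2.5 (log2 fold change -0.32, SE 0.049, adjusted p = 1.1e-06) and to 51.0% at d5 (log2 fold change -0.97, SE 0.047, adjusted p = 3.76e-11), a difference of -0.67 (adjusted p = 1.04e-09). The exons of Plod2 overlap those of Gm38391 on the other strand by 346 bases.

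Serpinh1 (ENSMUSG00000070436.12, chr7:99345376-99353239, minus strand) changed direction with the knockdown. At d2.5 it was at 1353, 1348 and 1331 CPM with vehicle, 1030.1, 1058 and 1074 CPM with FGF2, and 896, 894 and 853 CPM in the knockdown. At d5 it was at 1414, 1284 and 1412 CPM, 972, 950.2 and 975 CPM, and 1172, 1196 and 1168 CPM. No groups overlapped, and the knockdown was the lowest group at d2.5 and the middle one at d5. The knockdown lowered Serpinh1 to 83.1% at d2.5 (log2 fold change -0.27, SE 0.029, adjusted p = 5.1e-08) and raised it to 122% at d5 (log2 fold change 0.28, SE 0.039, adjusted p = 2.28e-05), a difference of 0.55 (SE 0.048, adjusted p = 1.73e-09). FGF2 lowered it on both days, by 0.36 and 0.49 (log2 fold changes -0.36 and -0.49, adjusted p = 1.42e-12 and 1.72e-08). The difference between days of -0.15 (adjusted p = 0.0067) was lost with upper-quartile scaling (-0.064, adjusted p = 0.25).

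Counted over the 10 genes, the FGF2 effect was higher at d5 than at d2.5 for Lox, Loxl1, Loxl2 and P4ha3 (4 of 10, against 31.8% of the 14198 genes tested) and lower for Loxl3, P4ha1, P4ha2, Plod2 and Serpinh1 (5 of 10, against 29.1%). The knockdown effect was higher at d5 for Loxl1, P4ha1, P4ha2 and Serpinh1 (4 of 10, against 11.6%) and lower for Lox, Loxl4 and P4ha3 (3 of 10, against 9.35%).

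From d2.5 to d5 the lysyl oxidases Lox, Loxl1 and Loxl2 rose in every group. Loxl2 rose most, by 3.11 on the log2 scale with vehicle (SE 0.066), 3.57 with FGF2 (SE 0.067) and 3.36 in the knockdown (SE 0.067), the adjusted p being 4.1e-26 or lower. Lox rose by 1.59, 2.94 and 1.92, and Loxl1 by 1.31, 1.75 and 2.07 in the same order. P4ha3 rose by 0.26 with vehicle, 1.87 with FGF2 and 1.53 in the knockdown. Loxl3 fell by 0.94 with FGF2 and by 0.84 in the knockdown and gave 0.091 with vehicle, which did not pass the test (adjusted p = 0.10). P4ha1 fell by 0.95 with FGF2 and by 0.60 in the knockdown and rose by 0.21 with vehicle. With vehicle, Lox, Loxl1, Loxl2, Loxl4, P4ha1, P4ha3 and Plod2 were called higher at d5 (7 of 10, against 33.1% of genes) and none lower (0 of 10, against 33.2%). None was lower at an unadjusted p under 0.05 by edgeR (0 of 10) or called lower by DESeq2 (0 of 10). P4ha2, at -0.11, was called lower without Ctrl+vehicle replicate 1 of d2.5 (-0.15) or of d5 (-0.17), which made the count 1. With FGF2, 5 were higher (against 41.2%) and 4 lower (against 38.8%), and in the knockdown 5 were higher (against 40.3%) and 4 lower (against 38.1%). Plod2 with FGF2 did not pass the test but was called lower under 9 of 25 alternatives.

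All 5 markers of smooth muscle were summed, and they moved over the same interval. Their summed level ran from 264 to 363 CPM with vehicle, 80.1 to 88.7 CPM with FGF2 and 66.2 to 75.8 CPM in the knockdown at d2.5. At d5 it ran from 2389 to 2554, 3224 to 3656 and 2732 to 2913 CPM. Acta2 made up most of the d5 sum (2006 to 2801 CPM by group mean), while Myh11 and Cnn1, which define the mature cell type, stayed at or under 1.70 CPM in every library. Cnn1 was at 0 in the d2.5 knockdown. Their part in the changes of Lox, Loxl1 and Loxl2 was not tested.

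**Figure D4:**
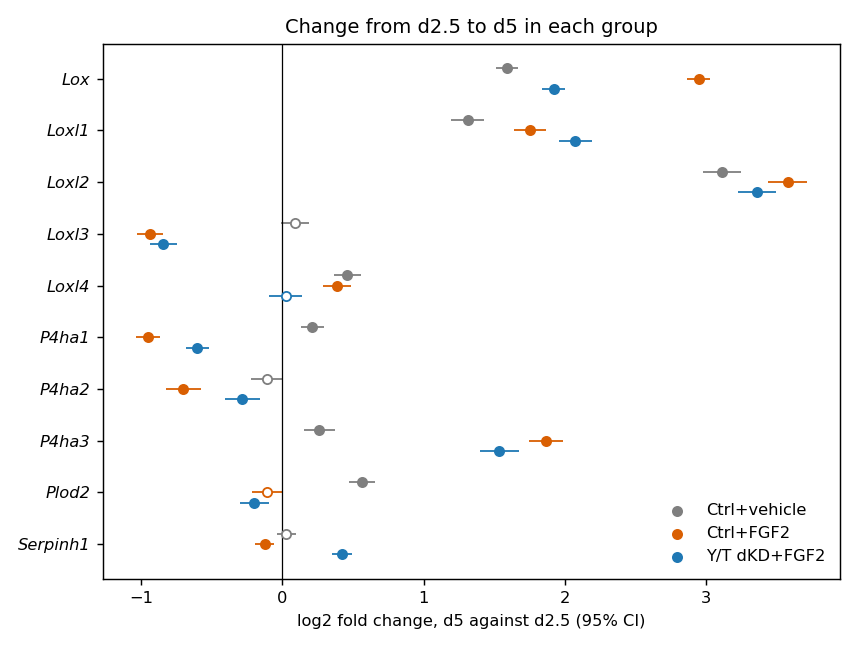
Log2 fold change from d2.5 to d5 (horizontal axis, with 95% confidence intervals) of the 10 genes in cells given vehicle, FGF2, and FGF2 with the knockdown. Filled points passed an adjusted p of 0.05 and open points did not. Loxl2 lies between 3.11 and 3.57 in the 3 groups. Loxl3, P4ha1, P4ha2 and Plod2 lie below 0 in both groups given FGF2, Plod2 as an open point in Ctrl+FGF2.

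With FGF2 at d2.5, where 34.1% of all genes tested were called lower and 33.5% higher, most partners of these enzymes were called lower. Of 14 collagen hydroxylation and glycosylation partners, 13 were tested and all 13 were called lower (median log2 fold change -0.76, beside 0.0022 over all genes), from Fkbp14, a prolyl isomerase of the endoplasmic reticulum (-1.77, SE 0.061), to the least changed at -0.24. P4hb, the beta subunit that the P4ha proteins need, fell by 0.61 (log2 fold change -0.61, adjusted p = 1.81e-18). Of the alpha subunits, P4ha1 rose by 0.13, while P4ha2 and P4ha3 fell (log2 fold changes -0.55 and -1.24). The collagen and elastin substrates fell further: all 9 tested of 10 were called lower (median -2.45), with Col1a1 at -2.53 and Col2a1 at -8.87, the latter at 0.99 ± 0.30 CPM with FGF2. Of 12 genes of procollagen export and processing, 10 were tested, 8 were lower and 1 was higher (median -0.69, from -1.77 for Adamts2, which removes the amino-terminal propeptide, to Mia2 at 0.17 among those called). Of 8 proteins known to bind lysyl oxidases or guide their action, 6 were lower and none higher (median -1.32), with Fmod at -8.83 and Fn1 at -0.059, which did not pass the test (adjusted p = 0.21). Of these 8, 1 averaged under 1 CPM with FGF2 at d2.5 and none with vehicle.

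For FGF2 at d5 the shares over all genes tested were 23.7% lower and 23.5% higher. Of 13 hydroxylation partners tested, 6 were lower and 1 was higher (median -0.13, beside 0.016 over all genes), with Fkbp14 at -0.64 and P3h4 at 0.44. Among the substrates 8 of 10 were lower (median -0.66), led among those called by Col11a2 at -3.25, and Col1a1 was at -0.93. Of the 8 binding partners 6 were lower and 2 higher (median -0.50), with Sparc at -1.05 and Efemp2, which tethers Lox to elastin, at 0.27. Of the 10 export and processing genes tested 7 were lower and none higher (median -0.29, Mia2 at -0.53).

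For the knockdown, the shares over all genes tested were 13.6% lower and 10.8% higher at d2.5 (median 0.0013), and 16.1% lower and 15.6% higher at d5 (median 0.0034). Of 13 hydroxylation partners 5 were lower and 1 was higher at d2.5 (median -0.062), with Plod1 at -0.33 and Ppib at 0.14, and 3 were lower and 4 higher at d5 (median 0.074), with P3h3 at -0.32 and Tmem38b at 0.35. Of the substrates, 3 were lower and 2 higher of 9 at d2.5 (median 0.0083), and 1 was lower and 5 higher of 10 at d5 (median 0.29), where Col1a1 rose by 0.39, Col3a1 by 0.70 and Col11a2 by 0.95. Col2a1 was called higher at d2.5 (1.57), at 2.96 ± 0.24 CPM. Col5a1 at -0.28 was the largest called fall at d2.5 and Col11a1 at -0.26 that at d5. Of the binding partners, 3 of 8 were lower at d2.5 (median -0.089, Efemp2 at -0.31), and 2 were lower and 3 higher at d5 (median 0.084, Fn1 at 0.33). Fbln5, an elastic fibre protein that binds lysyl oxidases, fell with the knockdown at d5 to 58.7% of Ctrl+FGF2 (log2 fold change -0.77, SE 0.040, adjusted p = 1.55e-10), beside Lox at 49.0%. Of the export and processing genes, 2 were lower and 1 was higher at d2.5 (Pcolce at -0.17 and Tll1 at 0.59), and 1 was lower (Adamts2 at -0.70) and 3 were higher at d5 (Adamts14 at 0.83).

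Genes of the response to low oxygen rose with FGF2 at d2.5. Over all genes tested, FGF2 raised 33.5% and lowered 34.1% at d2.5 (median 0.0022), and 23.5% and 23.7% at d5 (median 0.016). The knockdown raised 10.8% and lowered 13.6% at d2.5 (median 0.0013), and 15.6% and 16.1% at d5 (median 0.0034). All 16 listed hypoxia response genes were called higher with FGF2 at d2.5 (median 0.81), among them Vegfa at 0.79, Ldha at 0.69 and Car9 at 3.51. Of the 16, 1 averaged under 1 CPM with vehicle at d2.5 and none with FGF2. In the same comparison Lox, P4ha2 and Plod2 fell and P4ha1 rose by 0.13. With the knockdown at d2.5, 9 of 16 were lower and 1 higher (median -0.25), led by Pfkfb3 at -0.84 and Kdm3a at 0.15. At d5, 14 were tested. FGF2 raised 4 and lowered 5 of them (median -0.043, from Ndrg1 at -1.29 to Aldoc at 1.99), while P4ha1, P4ha2 and Plod2 were at 49.9%, 46.0% and 51.0% of vehicle. The knockdown at d5 lowered 6 and raised none (median -0.020, Aldoc at -1.496).

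Chaperones of the endoplasmic reticulum were set beside Serpinh1, and their counts stand beside the same shares over all genes (33.5% higher and 34.1% lower for FGF2 at d2.5, 23.5% and 23.7% at d5, and 10.8% and 13.6%, then 15.6% and 16.1%, for the knockdown). Of 14, 3 rose and 6 fell with FGF2 at d2.5 (median 0.0085, Pdia6 at 0.61 and Dnajb9 at -0.64), and none rose and 8 fell at d5 (median -0.13, Dnajb9 at -0.39). With the knockdown 3 rose and 2 fell at d2.5 (median 0.024, Pdia3 at 0.12 and Hyou1 at -0.18), and 9 rose and none fell at d5 (median 0.21, Manf at 0.40 and Hspa5 at 0.14). Of 10 heat shock genes, the knockdown raised 2 and lowered none at d2.5 (median -0.0063, Hspe1 at 0.21) and raised 3 and lowered 2 at d5 (median 0.077, Hspd1 at 0.21 and Hspb1 at -0.56). With FGF2, 6 rose and 4 fell at d2.5 (median 0.22, Hsp90aa1 at 0.94 and Hspb1 at -1.31), and 2 rose and 4 fell at d5 (median -0.043, Hspb1 at 0.96 and Hsph1 at -0.57).

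**Figure D5:**
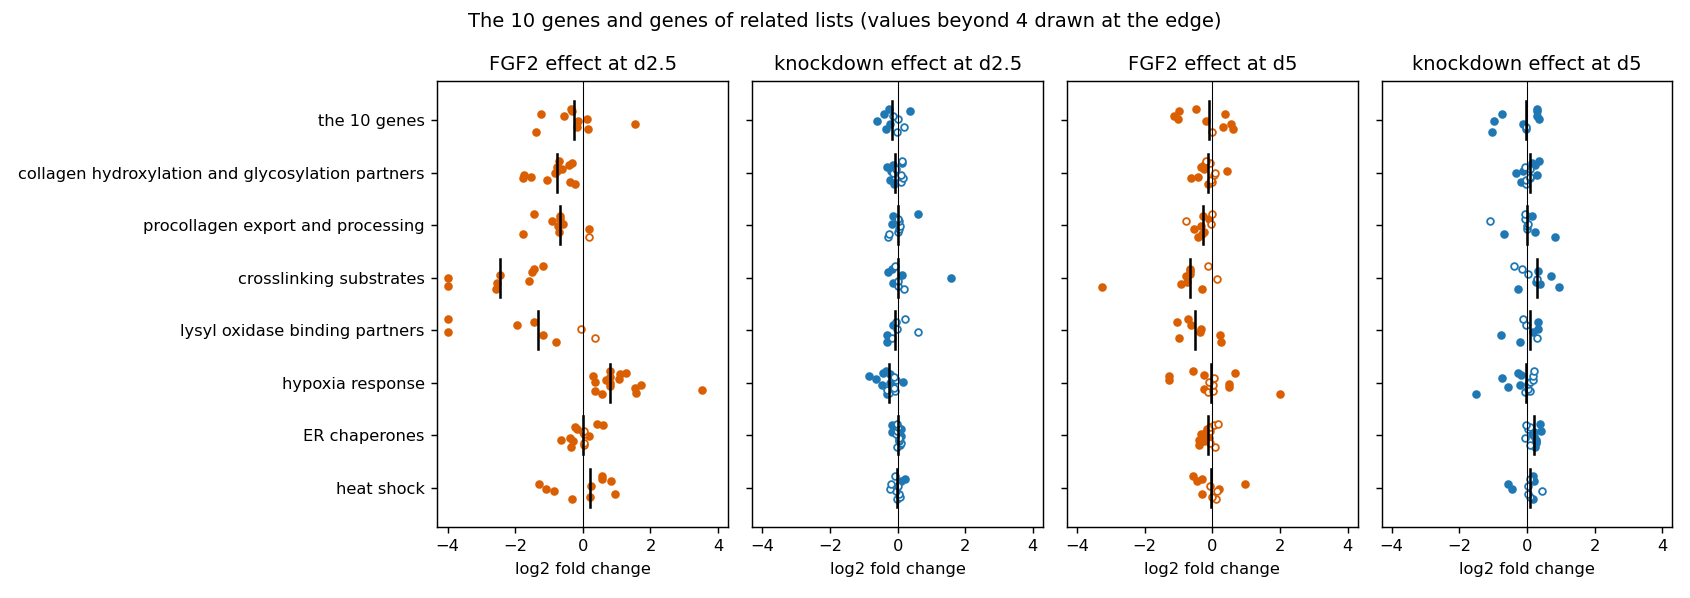
Log2 fold change (horizontal axes) of each tested gene in the 10 genes described and in 7 related lists (rows), for the FGF2 and knockdown comparisons at d2.5 and d5. Filled points passed an adjusted p of 0.05, open points did not, black bars are list medians, and values beyond 4 are drawn at the edge. All 16 hypoxia response genes lie right of 0 and all 13 hydroxylation partners left of 0 with FGF2 at d2.5.

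Profiles were compared as log2(CPM + 0.5), centred over the 6 group means, by the mean absolute difference, over 11062 genes. This describes likeness and gives no test. The genes most like Lox were Itga1 (0.093), Dtna (0.10) and Lims2 (0.16), where Lox itself spanned 2.95. For Loxl2, which spanned 3.56, they were Dusp15 (0.065), Ccn5 (0.10) and Hif3a (0.12). P4ha1 lay nearest to Lactb2 (0.079), Wee1 (0.096) and Arl14ep (0.10), Plod2 to Cgref1 (0.11), Nectin3 (0.12) and Ccdc122 (0.13), and Serpinh1 to Ostc (0.067), Ttc39c (0.069) and Neat1 (0.070). P4ha1 itself spanned 1.01, Plod2 0.98 and Serpinh1 0.64, less than Lox and Loxl2. None of the other 9 genes was among the 3 nearest of any of these 5. With the 18 libraries in place of the group means, all 3 names stayed for Lox and Loxl2, 2 of 3 for P4ha1 and Plod2, and 1 of 3 (Ostc) for Serpinh1. Within the 10, P4ha1 and P4ha2 were the nearest pair (0.21), followed by Plod2 and Serpinh1 (0.25) and by P4ha1 and Plod2 (0.26).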

How the data were processed

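Poly(A) RNA of O9-1 cells was sequenced from SMARTer libraries. Per the labels, FastQC, STAR, Picard, featureCounts and mm10 were used, versions not given in the sources used here. The authors deposited raw counts per gene, unstranded and for each strand. The counts of the strand that held 96.0% to 96.6% of stranded counts were used, unnormalized. The rows that name no gene (27.0% to 34.4% of that column) were left out. Of 55335 identifiers, 55154 matched GENCODE M21 (GRCm38) without their version suffix.

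edgeR 4.0.16 (R 4.3.3; TMM, filterByExpr, quasi-likelihood test, adjusted p under 0.05) was fitted to the 9 libraries of each day for comparisons within a day, and to all 18 for differences between days. The test was checked on simulated counts. Far fewer genes were changed in these than were called in any comparison here, so the check does not cover changes that broad. Total counts per library ran from 10377151 to 14698525, and precision depends on these and on the spread between libraries of a group.

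The genes and lists were chosen with earlier results of these data known. Besides the 10 genes, Yap1 and Wwtr1, the text names the called genes with the largest rise and fall (mean log2 CPM of at least 1). This was done for each list except those of markers. Other genes it names (P4hb, Col1a1, Col3a1, Fn1, Vegfa, Ldha, Hspa5 and markers) were chosen after their values were seen. Alternatives were DESeq2 1.42.0, other scalings (RLE, upper quartile), no filter or 10 counts in every library, unstranded counts, a replicate block, other sets of libraries in the fit and leaving out each library.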

Additional observations from a re-analysis of the deposited data

Results flagged for a closer look

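A difference of an effect between the days, by its own test in the fit of all 18 libraries, drew attention to 16 results. For the FGF2 effect (d5 minus d2.5, log2), these were Lox at 1.36, Loxl1 at 0.44, Loxl2 at 0.47, Loxl3 at -1.03, P4ha1 at -1.16, P4ha2 at -0.59, P4ha3 at 1.60, Plod2 at -0.67 and Serpinh1 at -0.15. For the knockdown effect they were Lox at -1.03, Loxl1 at 0.32, Loxl4 at -0.37, P4ha1 at 0.35, P4ha2 at 0.42, P4ha3 at -0.33 and Serpinh1 at 0.55. The sign of the FGF2 effect itself turned between calls on both days for P4ha1 and P4ha3, and that of the knockdown effect for Serpinh1. It also turned for Loxl2, whose d2.5 call was lost under 11 of 18 alternatives. The day and the batch cannot be told apart. Groups of 3 libraries were too small for the test for single outlying samples.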

How the results depend on the processing

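Of 2330 values recomputed for 110 results of the 10 genes, 2249 kept their sign and their side of the threshold, 19 lost a call, 28 gained one and 34 changed sign, each of these 34 in a result that was not called. The count of genes raised by the knockdown at d2.5 was 1 and became 2, with Loxl2, under no filter on low counts, under the replicate block and with only the 2 groups compared, and ran from 1 to 2 as single libraries were left out. The count lower at d5 than at d2.5 with vehicle was 0 and became 1, with P4ha2, under upper-quartile scaling and no filter, and ran from 0 to 1 as libraries were left out. The cause of these shifts was not tested.

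Changes of sign were as follows, on the log2 scale. The knockdown effect on Lox at d2.5 was 0.0032 with DESeq2, 0.0033 with RLE factors, 0.00097 with upper-quartile factors and 0.0029 in the fit of all 18 libraries, and ran from -0.041 to 0.020 as libraries were left out. That on P4ha1 at d2.5 was -0.0016 with unstranded counts and ran from -0.011 to 0.012. At d5 the knockdown effect ran from -0.064 to 0.039 for Loxl1 and from -0.052 to 0.00088 for Loxl2. The FGF2 effect on Lox at d5 was -0.0092 with DESeq2 and with RLE factors, -0.0027 with no filter, -0.0090 with unstranded counts, -0.011 with all 18 libraries and -0.010 with only the 2 groups, and ran from -0.044 to 0.034. Knockdown with FGF2 against vehicle at d2.5 was -0.022 for Loxl2 under upper-quartile factors and ran from -0.12 to 0.11, and for Plod2 it ran from -0.0035 to 0.097. Upper-quartile factors gave 0.021 for the difference of the FGF2 effect on Loxl4 between days, and from d2.5 to d5 with vehicle -0.0029 for Loxl3 and -0.066 for Serpinh1. From d2.5 to d5 in the knockdown, Loxl4 was -0.0024 with upper-quartile factors and -0.00054 with no filter, and ran from -0.0070 to 0.050.

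The replicate numbers did not pair the samples in general. Deviations of same-numbered libraries correlated with r from -0.25 to 0.39, and 4 of 27 pairs were over 0.1. Libraries of unlike number gave r from -0.39 to 0.24, with 7 of 54 pairs over 0.1. For Ctrl+vehicle with Ctrl+FGF2 at d5, r was 0.36 for replicate 1, 0.39 for replicate 2 and 0.018 for replicate 3. With the number as a block, the knockdown at d2.5 gave 1420 genes higher and 1806 lower (1483 and 1862 without it), and 2 calls among the 110 results changed, both for Loxl2 (0.19 for the knockdown at d2.5, adjusted p = 0.040, and -0.22 for its difference between days, adjusted p = 0.035). Per longest transcript in place of merged exons, 30 shares of a gene in its family moved by more than 1 SD.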
